A study of Mus musculus with 14 samples.

Results

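The genes examined here encode the adhesion molecules that let leukocytes stop on and cross the vessel wall, namely Vcam1, Icam1, Icam2, Sele, Selp and Pecam1 of the endothelium and the integrin chains Itga4, Itgb1, Itgb2 and Itgal. They were chosen by gene symbol, and each was taken from the row of the value table that is annotated to that symbol alone. Of the 10 genes, 9 had such a row, 1 row each, among 19938 genes measured this way, and Selp was not analysed here. Liver RNA came from 14 male C57BL/6 mice, 24 weeks of age, that had eaten a high-fat diet during 20 weeks, and each mouse had an Affymetrix array of its own. The 7 HFM mice had received mesenchymal stem cells (MSCs) by tail vein and the 7 HFS mice saline (also called PBS in the study's methods), and all livers were taken 24 h later. The MSCs were human, from the bone marrow of a single donor, and were described by the study as CD29+, which is the protein of human ITGB1. The comparison asks whether livers of MSC-treated mice differed in the RNA of this adhesion machinery.

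Leukocytes first roll on selectins, E-selectin (Sele) and P-selectin (Selp) of activated endothelium, then arrest when their integrins bind immunoglobulin-like ligands, and finally migrate between endothelial cells with the help of PECAM-1. The integrin VLA-4, a pair of the alpha chain from Itga4 and the beta chain from Itgb1, binds VCAM-1, and LFA-1, a pair of the chains from Itgal and Itgb2, binds ICAM-1 and ICAM-2. In the sinusoids of the liver selectins play a minor part, and VCAM-1 and ICAM-1 on sinusoidal endothelium carry much of the arrest of leukocytes. Kupffer cells also express Vcam1 and Itgb2, and Itgb1 is expressed by nearly all cells, hepatocytes included.

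Vcam1 and 3 of 4 integrin chains, Itga4, Itgb2 and Itgal, were higher in HFM livers by limma at p under 0.05 before adjustment, and Itgb1 and the other 4 endothelial genes were not past that threshold. The log2 differences of the former were 0.44 for Vcam1, 0.34 for Itga4, 0.34 for Itgb2 and 0.30 for Itgal, where 0.44 is a 1.36-fold and 0.30 a 1.23-fold difference. Thus 4 of 9 genes were higher and 0 lower at this threshold, beside 3.57% of all 23410 tested rows that were higher and 2.9% that were lower, or 6.47% in either direction. Above 0 were 7 of 9 genes, beside 51.4% of all tested rows. Only Vcam1 passed the p and fold filter of the study's methods, p below 0.01 and a change of 1.2-fold or more, here applied to the unadjusted p of limma, which 0.453% of all tested rows passed as higher and 0.696% in either direction. The methods also name a Bonferroni correction, after which 0 genes passed. Without HFS5, 4 genes passed the p and fold filter (Vcam1, Itga4, Itgb2 and Itgal), without HFM1 it was passed by 2 (Vcam1 and Itga4), and without HFM5 by 2 (Vcam1 and Itgb2). The share of all tested rows past this filter with a mouse left out is not given here. No gene passed an adjusted p of 0.05 (Benjamini-Hochberg over all tested rows, limma), beside 0% of all tested rows, and the adjusted p of the 9 genes ran from 0.714 to 0.935. The study named Vcam1, Itga4 and Itgb2 among its differentially expressed genes from these same arrays, so their direction is not independent evidence. The median log2 difference was 0.07 over the 9 genes and 0.00 over all tested rows.

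Values are on the log2 scale as the authors normalized and deposited them, with array medians of 4.24 to 4.35 and correlations of 0.970 to 0.991 between arrays. The mean level of 10 hepatocyte markers was 11.54 ± 0.08 (SD, n = 7) for HFM livers and 11.50 ± 0.05 (n = 7) for HFS livers. HFM2 had the highest mean of leukocyte markers, and HFS5 the highest of the HFS group, and results that rest on these mice are also given without them. The table holds no detection calls, so a low value cannot be told from the absence of a transcript. In whole liver, a change in the number of cells of a type and a change in RNA per cell cannot be told apart.

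Vcam1, the endothelial ligand of VLA-4, ran from 5.56 to 6.45 with a median of 6.13 in HFM livers and from 5.36 to 5.84 with a median of 5.56 in HFS livers. Of the HFM mice, 5 of 7 lay above every HFS mouse, HFM7 lay within the HFS range and HFM5 lay near the HFS median. The means were 6.04 ± 0.31 (SD, n = 7) and 5.60 ± 0.18 (n = 7), a log2 difference of 0.44 (standard error 0.12, 95% confidence interval 0.20 to 0.69), with an exact two-sided permutation p of 0.00874 and an adjusted p of 0.714 from limma. The difference remained between 0.38 and 0.53 when each mouse was left out in turn, with an unadjusted p from limma of at most 0.00397.

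**Figure D1:**
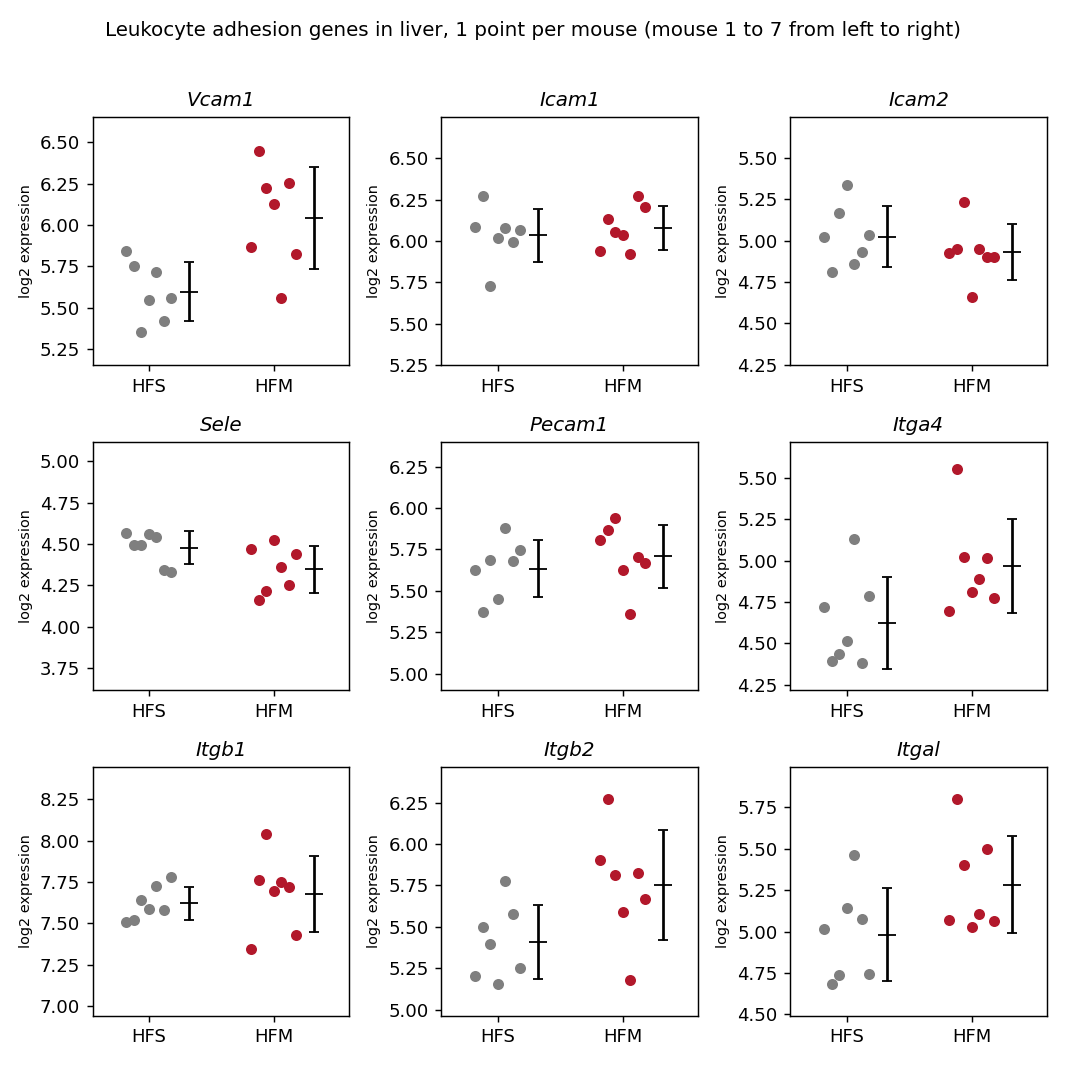
Log2 expression (vertical axis, as deposited, 1.5 log2 units in every panel) of the 9 measured adhesion genes with HFS livers in gray and HFM livers in red. Each point is 1 mouse, the bars give mean ± SD (n = 7), and in the Vcam1 panel 5 of 7 HFM mice lie above every HFS mouse.

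Icam1, the main endothelial ligand of LFA-1, ran from 5.92 to 6.27 (median 6.06) in HFM and from 5.73 to 6.27 (median 6.07) in HFS livers. The groups covered nearly the same range, and the difference was 0.04 (standard error 0.08) with a confidence interval of -0.12 to 0.21, so that a change of more than 0.21 lies outside the interval. Icam2, a ligand of LFA-1 that resting endothelium already carries, ran from 4.66 to 5.23 (median 4.93) in HFM and from 4.81 to 5.34 (median 5.02) in HFS livers. Its difference was -0.09 (standard error 0.09, interval -0.28 to 0.09), and 6 of 7 HFM mice were under the mean of the HFS group. Pecam1, a junction molecule of endothelium that platelets and leukocytes share, ran from 5.36 to 5.94 (median 5.70) in HFM and from 5.37 to 5.88 (median 5.68) in HFS livers, and differed by 0.07 (standard error 0.09, interval -0.12 to 0.27).

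Sele, the selectin that endothelium makes only after activation, ran from 4.16 to 4.52 (median 4.36) in HFM and from 4.33 to 4.57 (median 4.49) in HFS livers. These values lay close to the medians of the arrays, and those of HFM2 and HFM3 lay below every array median. The difference was -0.13 (standard error 0.07, interval -0.28 to 0.02; exact permutation p = 0.0693), and 6 of 7 HFM mice were under the mean of the HFS group. Among the 9 genes its difference was the lowest and that of Vcam1 the highest. Its unadjusted p from limma was 0.0795, and was 0.0376 without HFM4 and 0.0472 without HFS7.

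The upstream sequences of Icam1 and Sele, which were not higher in HFM livers, and of Itga4, which was, are shown as examples. Whether NF-kB had a part in any difference was not tested. They are the 250 bases before the annotated start of each gene from RefSeq (GRCm38.p6, plus strand), at chr9:21015690-21015939 for Icam1, chr1:164047984-164048233 for Sele and chr2:79255176-79255425 for Itga4. Capitals mark matches to GGNNNTTCC on either strand, the core of an NF-kB element, where N is any base.
Icam1: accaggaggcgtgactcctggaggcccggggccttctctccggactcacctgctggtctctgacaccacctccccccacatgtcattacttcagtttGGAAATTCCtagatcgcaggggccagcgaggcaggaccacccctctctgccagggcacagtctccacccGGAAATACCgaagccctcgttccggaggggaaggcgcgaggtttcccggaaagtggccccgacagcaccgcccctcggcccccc
Sele: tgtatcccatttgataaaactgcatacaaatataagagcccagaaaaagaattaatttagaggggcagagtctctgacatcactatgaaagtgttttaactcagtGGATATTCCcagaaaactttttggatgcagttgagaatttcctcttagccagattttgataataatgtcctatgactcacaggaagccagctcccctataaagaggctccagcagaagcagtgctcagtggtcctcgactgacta
Itga4: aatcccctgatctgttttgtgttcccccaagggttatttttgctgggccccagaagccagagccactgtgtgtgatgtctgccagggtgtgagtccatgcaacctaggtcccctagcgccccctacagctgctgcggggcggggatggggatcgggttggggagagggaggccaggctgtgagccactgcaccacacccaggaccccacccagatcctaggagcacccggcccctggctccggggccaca

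Icam1 held 2 matches, 153 and 84 bases before its start, and Sele held 1 match, 145 bases before its start. Itga4 held none in this window, which says nothing of sites elsewhere. RefSeq sequences were matched for 5 of the 10 genes, Icam1, Sele, Selp, Itga4 and Itgb1. Of these 4 held a match, beside 15.7% of all 32851 promoters of the same length. No sequence was at hand for Vcam1, Itgb2 and Itgal, which were higher in HFM livers. Matches can therefore not be compared between the higher genes and the others. A match is a run of letters and was not measured as a binding site here.

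Itga4, the alpha chain of VLA-4 on lymphocytes and monocytes, ran from 4.69 to 5.55 (median 4.89) in HFM and from 4.38 to 5.13 (median 4.51) in HFS livers. All 7 HFM mice lay above the HFS mean, 4 of 7 HFS mice lay below every HFM mouse, and HFS5, at 5.13, lay above all HFM mice but HFM2. The means were 4.97 ± 0.29 (SD, n = 7) and 4.62 ± 0.28 (n = 7), a difference of 0.34 (standard error 0.13, exact permutation p = 0.0396), which was 0.25 without HFM2 and 0.43 without HFS5. Itgb1, the beta chain that completes VLA-4, ran from 7.35 to 8.04 (median 7.72) in HFM and from 7.51 to 7.78 (median 7.59) in HFS livers. The HFM mice spread more widely than the HFS mice, and the difference was 0.06 (standard error 0.09, interval -0.13 to 0.24). Whether RNA of the human MSCs reached the probes of Itgb1 was not tested.

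Itgb2, the beta chain of LFA-1 and of the other beta2 integrins of leukocytes, ran from 5.18 to 6.27 (median 5.81) in HFM and from 5.15 to 5.77 (median 5.39) in HFS livers. Of the HFM mice, 4 of 7 lay above every HFS mouse, and HFM5 was the one below the HFS mean. The difference was 0.34 (standard error 0.13, exact permutation p = 0.0408), and it was 0.26 without HFM2 and 0.40 without HFS5. Itgal, the alpha chain of LFA-1, ran from 5.03 to 5.80 (median 5.11) in HFM and from 4.68 to 5.46 (median 5.01) in HFS livers. All 7 HFM mice lay above the HFS mean, but the medians were close, and the difference of 0.30 (standard error 0.13) had an exact permutation p of 0.0903. It is the least stable of the 4, at 0.22 without HFM2 with an unadjusted p from limma of 0.0927. The groups of all 9 genes overlapped, where 0.0555% of all tested rows had groups that did not (0.0256% as higher in HFM).

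**Figure D2:**
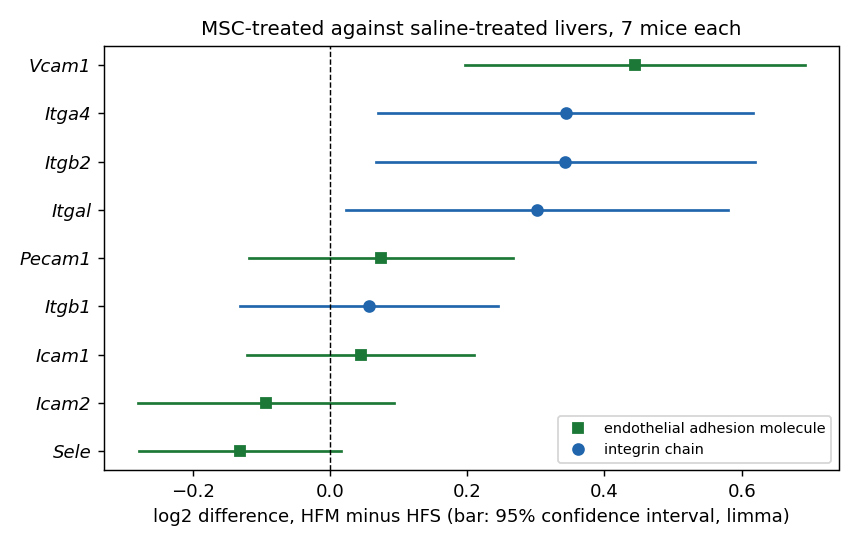
Log2 difference, HFM minus HFS (horizontal axis), of the 9 genes, with 95% confidence intervals from limma over 7 and 7 mice. Squares are endothelial adhesion molecules and circles integrin chains, and the intervals of Vcam1, Itga4, Itgb2 and Itgal lie above 0.

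Whether one gene differed more than another was tested on the difference of their log2 values in each mouse, for all 16 pairs within the endothelial and the integrin genes. A scaling of a whole array cancels in this measure. Vcam1 exceeded Sele by 0.57 (standard error 0.16; exact permutation p = 0.00233, adjusted over the pairs 0.0373) and Icam1 by 0.40 (standard error 0.11; exact permutation p = 0.00524, adjusted 0.0419), in 7 of 7 HFM mice relative to the HFS mean. It exceeded Icam2 by 0.54 (exact permutation p = 0.0105, adjusted 0.0560) and Pecam1 by 0.37 (exact permutation p = 0.0169, adjusted 0.0676). Among the integrin chains, Itga4 exceeded Itgb1 by 0.29 (standard error 0.13; exact permutation p = 0.0449, adjusted 0.144), and the differences of Itga4, Itgb2 and Itgal lay within 0.04 of each other. The 2 pairs past an adjusted p of 0.05 were 0 to 4 pairs with a mouse left out, with 0 past it without HFS1, HFS3, HFS4, HFS6 or HFS7, 1 without HFM1, HFM2, HFM3, HFM4 or HFM6, and 4 without HFS2 or HFS5. The pairs were formed after it was known that Vcam1 differed most.

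Of 12 leukocyte markers 11 were above 0, with a median log2 difference of 0.18, and 2, Cd48 at 0.27 (standard error 0.10) and the GTPase Rac2 at 0.30 (standard error 0.13), were higher at an unadjusted p under 0.05. Cd48 reached at most 4.22 in HFM and 3.78 in HFS livers, below every array median. The summed markers, as a mean log2 level, ran from 5.11 to 5.91 in HFM and from 5.12 to 5.51 in HFS livers, and the pan-leukocyte phosphatase Ptprc differed by 0.21 (standard error 0.14). Of 14 macrophage and Kupffer cell markers 14 were above 0, with a median of 0.29, and 5 passed that threshold. Mpeg1, whose product forms pores in engulfed microbes, was higher by 0.52 (standard error 0.17), Cd5l by 0.56 (standard error 0.21) and C1qb by 0.41 (standard error 0.17), while Adgre1 differed by 0.45 (standard error 0.23) and Clec4f, which marks Kupffer cells, by 0.19 (standard error 0.19). The mean level of this list ran from 6.39 to 7.39 in HFM and from 6.11 to 7.16 in HFS livers. Without HFM2 the counts past that threshold were 0 of 12 leukocyte markers (median 0.11) and 2 of 14 macrophage markers, Cd5l and Mpeg1 (median 0.19). Without HFS5 they were 5 of 12 (median 0.24) and 9 of 14 (median 0.37), and without both mice 2 of 12 (median 0.14) and 6 of 14 (median 0.28). With all mice 3.57% of all tested rows were higher at that threshold. The share with mice left out is not given here, so these shifts cannot be set beside it. The part of leukocytes and macrophages in the differences of Vcam1, Itga4, Itgb2 and Itgal was not tested. Of the leukocyte markers 3 of 12 (Rac2, Laptm5 and Arhgdib) and of the macrophage markers 5 of 14 (Cd5l, Cd68, Marco, Adgre1 and C1qa) are also among the genes the study listed from these arrays, so their direction is not independent evidence.

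Of 20 endothelial markers 9 were above 0 and 11 below, with a median of -0.00 and 0 past an unadjusted p of 0.05 from limma, and their mean level ran from 6.08 to 6.45 in HFM and from 6.13 to 6.44 in HFS livers. Kdr, a VEGF receptor, differed by -0.00 (standard error 0.09), the junction cadherin Cdh5 by 0.19 (standard error 0.12) and the hyaluronan receptor Lyve1 by 0.27 (standard error 0.13). Emcn, with the smallest unadjusted p of this list from limma, differed by -0.17 (standard error 0.08), and Eng by 0.25 (standard error 0.13). Of 13 neutrophil markers 11 were above 0 with a median of 0.10, and 1, Cxcr2, was higher at that threshold, by 0.23 (standard error 0.10). The mean of the neutrophil list lay 1.03 above the mean of the 14 mice in HFM2 and below that mean in the other HFM mice, and without HFM2 the median of the list was -0.05, with 4 of 13 above 0, and Cxcr2 no longer passed. S100a8, at 4.06 ± 1.24 (SD, n = 7) in HFM and 3.69 ± 0.52 (n = 7) in HFS livers, reached 6.84 in 1 HFM mouse against a median of 3.57. Of 11 T and NK cell markers 6 were above 0 and 1, Cd3g, was higher, by 0.22 (standard error 0.07), whereas Cd3e differed by 0.01 (standard error 0.08). Of 6 B cell markers 1, Cd79a, was lower, with a log2 difference of -0.24 (standard error 0.10). Mean levels in HFM and HFS livers were 3.87 and 3.74 for the neutrophil list and 3.71 and 3.70 for the T and NK cell list. Those of the B cell list were 3.68 and 3.70. All of these group means lay below every array median. Of 6 platelet markers 1, Clec1b, was higher, by 0.50 (standard error 0.18), a gene that Kupffer cells of the mouse also express, while Pf4 differed by -0.07 (standard error 0.08) and Itga2b by -0.02 (standard error 0.10). Of 10 stellate cell and fibroblast markers 2, Col1a2 and Pdgfrb, were higher, by 0.21 (standard error 0.08) and 0.22 (standard error 0.09). Pdgfrb and Cd79a no longer passed without HFM2, nor Col1a2 without HFS5. Of the markers of hepatocytes and cholangiocytes 0 passed an unadjusted p of 0.05 from limma. Over all tested rows 3.57% were higher and 2.9% lower at that threshold, and no marker list was tested against these shares.

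**Figure D3:**
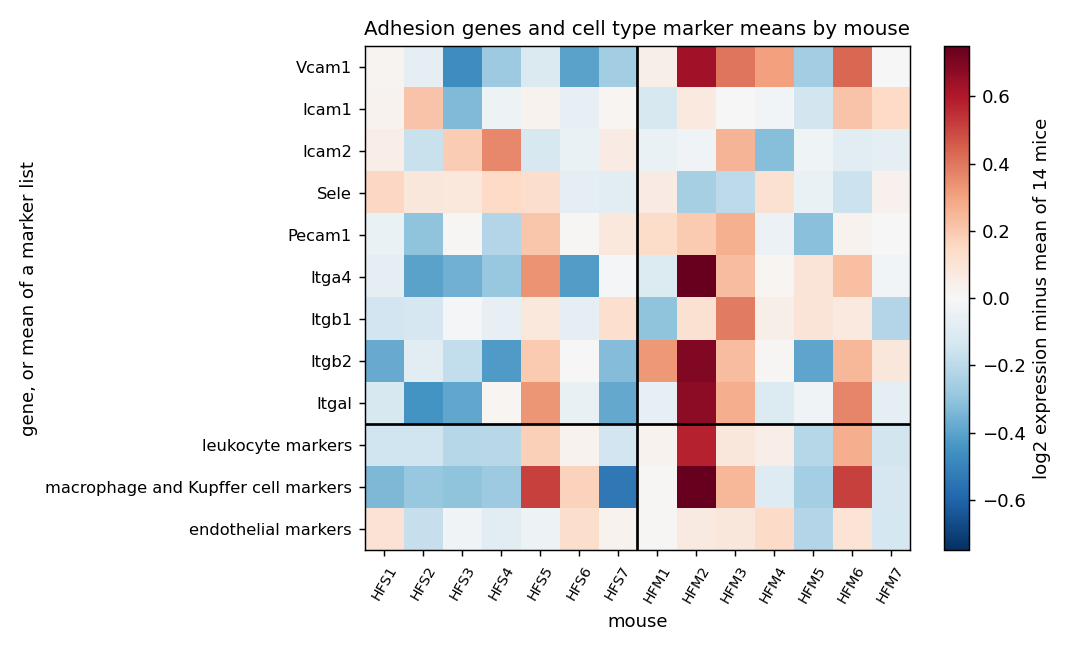
Log2 expression minus the mean of the 14 mice (color scale, red high and blue low) of the 9 genes and of the means of 3 marker lists, in rows, for each HFS and HFM mouse, in columns. HFM2 has the highest leukocyte marker mean and the highest Vcam1, Itga4, Itgb2 and Itgal.

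Within groups, mice with higher leukocyte markers had higher Itgb2 and Itgal. After the group means were removed, Itgb2 correlated with the mean of the leukocyte markers over 14 mice at r = 0.860 (permutation p = 0.0004, adjusted over 27 relations 0.00360; Spearman's rho 0.697, permutation p = 0.00956, adjusted 0.0763), at 0.870 within HFM and 0.851 within HFS mice. Itgal did so at r = 0.813 (permutation p = 0.00106, adjusted 0.00716; rho 0.552, permutation p = 0.0483, adjusted 0.217). Without the 2 mice farthest from the median of the markers, HFM2 and HFS5, r was 0.705 for Itgb2 and 0.547 for Itgal. Itga4 had r = 0.736 (permutation p = 0.00727, adjusted 0.0393; rho 0.477, permutation p = 0.0988, adjusted 0.296), which was 0.170 without HFM2 and HFS5, so that the relation rests on these mice.

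Vcam1 correlated with the leukocyte markers at r = 0.724 (permutation p = 0.0104, adjusted 0.0468; rho 0.710, permutation p = 0.0113, adjusted 0.0763), and at 0.628 without HFM2 and HFS5. This relation was at 0.905 within HFM mice and 0.152 within HFS mice, and the difference between these values was not tested. With the macrophage markers Itgal was at r = 0.885 (permutation p = 0.00027, adjusted 0.00360; rho 0.723, permutation p = 0.00609, adjusted 0.0763) and Itgb2 at 0.833 (permutation p = 0.00017, adjusted 0.00360; rho 0.763, permutation p = 0.00303, adjusted 0.0763). Without HFS5 and HFM2 these were 0.727 and 0.671. Vcam1 with the macrophage markers was at r = 0.554 (permutation p = 0.0514, adjusted 0.126; rho 0.530), at 0.879 within HFM and 0.0292 within HFS mice. Without HFS5 and HFM2 it was at 0.383. With the endothelial markers Vcam1 was at r = 0.529 (permutation p = 0.0828, adjusted 0.186; rho 0.433), at 0.855 within HFM and -0.171 within HFS mice. Without HFM5 and HFS2 it was at 0.479. The differences between the groups were not tested here either. Itga4 with the macrophage markers was at 0.639 (permutation p = 0.0202, adjusted 0.0779; rho 0.235) and at -0.0453 without HFS5 and HFM2. Pecam1 was at r = 0.614 with the leukocyte, 0.575 with the macrophage and 0.601 with the endothelial markers (permutation p = 0.0288, 0.0407 and 0.0331, adjusted 0.0972, 0.110 and 0.0993; rho 0.609, 0.516 and 0.341). Without HFM2 and HFS5 the first 2 were 0.494 and 0.356, and without HFM5 and HFS2 the last was 0.125. Icam1, Icam2, Sele and Itgb1 had an adjusted permutation p of 0.228 or more for r with each of the 3 lists. No rank correlation of the 27 passed an adjusted p of 0.05, and 0.0763 was the smallest.

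**Figure D4:**
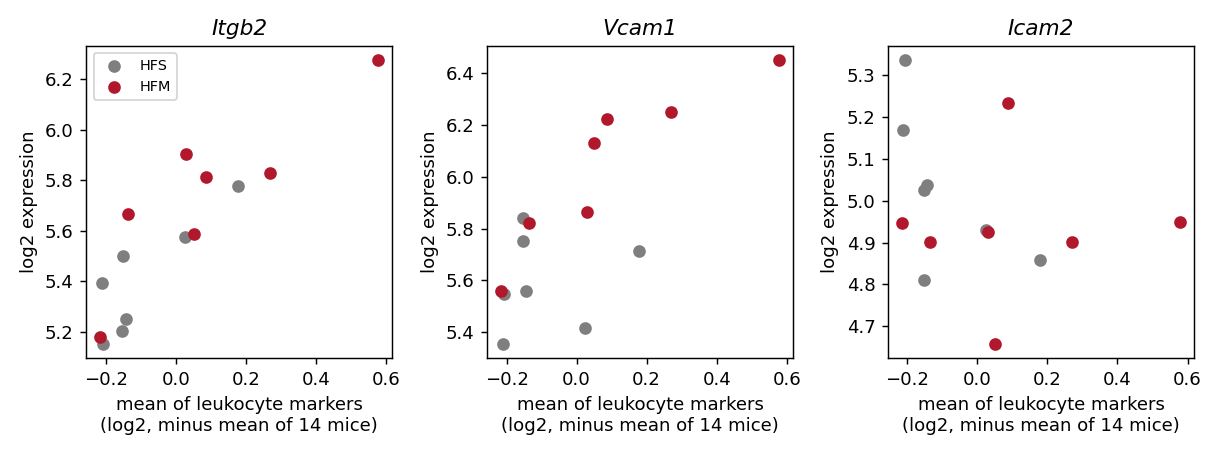
Log2 expression of Itgb2, Vcam1 and Icam2 (vertical axes) against the mean of 12 leukocyte markers (horizontal axes, log2 minus the mean of 14 mice) in HFS (gray) and HFM (red) mice. Itgb2 is higher where the markers are higher in both groups, with r = 0.870 within HFM and 0.851 within HFS mice.

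Partner genes were compared in the same way over 8 pairs. The LFA-1 chains Itgal and Itgb2 correlated at r = 0.593 (permutation p = 0.0361, adjusted 0.144; rho 0.358, permutation p = 0.224, adjusted 0.459), which was 0.126 without HFM2 and HFS5, so that the relation rests on these mice. The VLA-4 chains Itga4 and Itgb1 were at r = 0.507 (permutation p = 0.0822, adjusted 0.219) and rho 0.736 (permutation p = 0.00514, adjusted 0.0411), with r = 0.620 without HFM2 and HFS5. Vcam1 and Itga4, ligand and receptor chain, were at r = 0.603 (permutation p = 0.0253, adjusted 0.144; rho 0.587, permutation p = 0.0344, adjusted 0.138), with r = 0.527 without HFM5 and HFM2. Icam1 with either LFA-1 chain had r of 0.238 and 0.263 (permutation p = 0.427 and 0.365).

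The genes whose within-group pattern was most like each of the 9 were taken from all 19938 genes by Pearson's r of the deviations over 14 mice, as a description. For Vcam1 these were Ppp2r1a (r = 0.923), Fchsd2 (0.910) and Tln1 (0.910), the last encoding talin, which links integrins to actin. For Itgal they were Slfn5 (0.901), Fyb (0.896) and Ifi205 (0.892), and for Itgb2 Parp8 (0.903), Ifi27l2a (0.901) and Tbc1d1 (0.885). Itga4 had Acp2 (0.910), Nags (0.880) and Rgs2 (0.873), and Itgb1 had Sacm1l (0.965), Prpf4b (0.959) and Pikfyve (0.946). For Pecam1 they were Insig1 (0.919), Ap1s2 (0.917) and Gpam (0.893), for Icam1 Retreg1 (0.899), Wbp1 (0.828) and Siva1 (0.824), for Icam2 Lars (0.910), Nfxl1 (0.873) and Daglb (0.871), and for Sele B3gnt9 (0.837), Dhrs13 (0.834) and Gm829 (0.827).

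The other genes of the adhesion pathway were taken from 6 lists. The counts of these lists at an unadjusted p under 0.05 from limma stand beside 3.57% of all tested rows higher and 2.9% lower. That share with a mouse left out is not given here. Of 32 integrin activators and adaptors 25 were above 0, with a median of 0.07, and 3 were higher and 0 lower at an unadjusted p under 0.05. Rasgrp2, an exchange factor that switches on Rap1 and thereby integrins, had a mean of 5.22 ± 0.19 (SD, n = 7) in HFM livers against 4.91 ± 0.15 (n = 7) in the saline group, and was higher by 0.31 (standard error 0.09; exact permutation p = 0.00408), with 7 of 7 HFM mice above the HFS mean. It was the 1 gene of the 6 pathway lists past the filter of the methods. Tln1 was higher by 0.16 (standard error 0.07) and Rassf5, which carries Rap1 signals to LFA-1, by 0.18 (standard error 0.08), while Cyth1, an exchange factor that binds the tail of Itgb2, differed by 0.20 (standard error 0.10). Without HFM2 only Rasgrp2 of these passed, and without HFS5 the list had 6 higher genes.

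Of 16 other integrin alpha chains 10 were above 0, with a median of 0.10, and 2 were higher. These were Itga8, at 0.23 (standard error 0.10), and Itga1, a collagen receptor chain, at 0.22 (standard error 0.10), while Itga9, which also binds VCAM-1, differed by 0.25 (standard error 0.13) and Itgae by -0.21 (standard error 0.10). Of 7 genes in the list of other beta chains, which counts the beta-like Itgbl1, 1, Itgb5, which pairs with the alpha v chain, was higher, by 0.17 (standard error 0.08), and Itgb7, Itgb8 and Itgbl1 differed by -0.03, -0.04 and -0.06. Itga8, Itga1 and Itgb5 no longer passed without HFM2, nor Itga1 and Itgb5 without HFS5, nor Itgb5 with the replicate block. Of 20 other endothelial and junctional molecules 10 were above 0 and 0 passed an unadjusted p of 0.05 from limma, with Cd9 at 0.22 (standard error 0.13), Nectin2 at 0.14 (standard error 0.09), Icam4 at -0.12 (standard error 0.07) and Aoc3 at -0.13 (standard error 0.08). Of 13 selectins and selectin ligand genes 1 was lower, the sialyltransferase St3gal6, with a log2 difference of -0.15 (standard error 0.07), which did not pass with array medians subtracted. St3gal6 reached at most 4.05 in HFM and 4.19 in HFS livers, below every array median. The mucins Podxl and Emcn differed by -0.17 (standard error 0.08) each and St3gal4 by 0.13 (standard error 0.08).

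Of 23 genes that induce or restrain endothelial adhesion molecules 12 were above 0, with a median of 0.00, and 2 were higher and 2 lower. Tnfrsf1b, a TNF receptor, was higher by 0.18 (standard error 0.07) with 7 of 7 HFM mice above the HFS mean, and Ltbr, the lymphotoxin receptor, by 0.18 (standard error 0.08). The lower genes were Ifng, with a log2 difference of -0.18 (standard error 0.07), and the endothelial and blood cell factor Gata2, with -0.16 (standard error 0.07). Their means in HFM and HFS livers were 4.08 and 4.25 for Ifng and 4.23 and 4.39 for Gata2. Such values are close to or below the array medians of 4.24 to 4.35. Gata2 did not pass with array medians subtracted, nor Ltbr without HFM2 or HFS5, nor Ifng and Tnfrsf1b without both. These 4 genes, like all others of the lists, had an adjusted p from limma above 0.05.

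**Figure D5:**
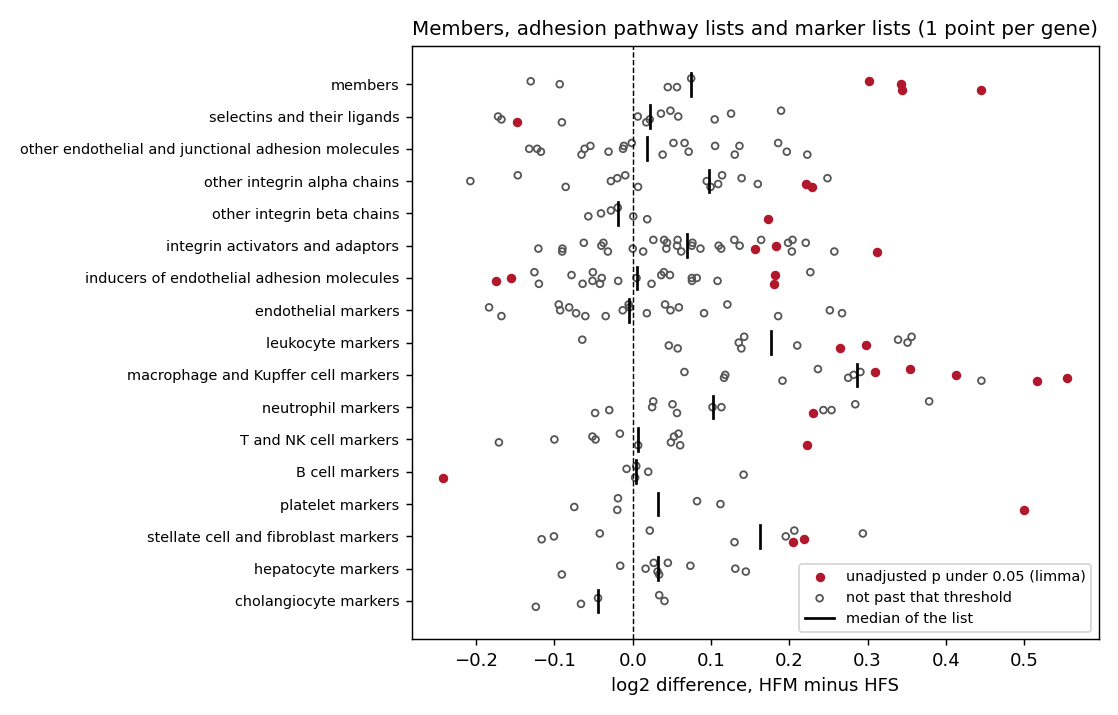
Log2 difference, HFM minus HFS (horizontal axis), of the 9 adhesion genes (members), of the 6 pathway lists and of the marker lists, 1 point per gene. Red points passed an unadjusted p under 0.05 from limma, open points did not, and black lines are medians, at 0.07 for the 9 genes and 0.29 for macrophage and Kupffer cell markers.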

How the data were processed

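Liver RNA of 7 HFM and 7 HFS mice was hybridized with 1 mouse per array, and the number of arrays limits the precision. Per probe set, the authors deposited log2 values made in Affymetrix Expression Console. The labels name RMA as the method and the study's methods name PLIER, while the version of Expression Console, the genome build and the probe annotation were not stated in the labels or methods read here. The study's own tests were made in Partek Genomics Suite and are not used here. The number of value columns not used was 0.

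Of 35556 rows, 23410 carry at least 1 gene symbol and 21789 exactly 1, from the platform annotation. The former were tested as HFM minus HFS with limma 3.58.1 in R 4.3.3 (lmFit and eBayes, no covariate), with Benjamini-Hochberg adjustment over all of them. A gene was represented by its single-symbol row of highest mean. Exact permutation tests were two-sided over all 3432 assignments of mice, where 0.000583 is the smallest p they can give. Correlations used deviations from group means, with values shuffled 100000 times within groups. The scripts were tested on simulated data.

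The members and lists were chosen with earlier results of these data known. Named were all measured members, up to 4 genes of smallest p per pathway list and up to 3 per marker list, some fixed marker genes, and the 3 genes most like each member. The comparisons of pairs and the relations with markers were added after values were seen, and the pairs were first tested on 7 chosen pairs before all 16 were taken. No source used here names litters or cages, so whether the mice were independent could not be checked. The p values treat them as independent and set differences against the spread between these mice only. For limma, that spread is drawn in part from all tested rows.

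Mice of both groups carry the numbers 1 to 7. Same-numbered mice had correlations of deviations from -0.203 to 0.139, with 1 of 7 over 0.1, so the numbers were not taken to pair them. Alternatives were other normalizations, priors, weights, row filters, the replicate block and leaving out each mouse, and for the lists the left-out mice were chosen after seeing the data.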

Additional observations from a re-analysis of the deposited data

Results flagged for a closer look

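In HFM livers, Itga4 of HFM2 lay at 5.55 where the next highest HFM mouse lay at 5.02, a gap of 0.616 of the range of the group. This was 1 of 18 groups of 7 mice examined, and chance flags about 1 in 20 groups. The log2 difference of Itga4 was 0.34 with this mouse and 0.25 without it.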

How the results depend on the processing

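The number of genes past an adjusted p of 0.05 was 0 under every alternative run, and the number past an unadjusted p of 0.05 was 4, with 3 to 4 under other settings and 3 to 5 with each mouse left out. The number past the filter of the methods was 1, with 1 to 4 when each mouse was left out, 0 with a Bonferroni correction and 2 with HFM2 and HFS5 both left out, an alternative chosen after seeing the data. The 2 pairs of genes that differed were 1 after quantile normalization, 0 with HFM2 and HFS5 both left out, and 0 to 4 with each mouse left out, alternatives also chosen after seeing the data. The log2 difference of Icam1 ran from -0.0062 without HFS3, where it reversed, to 0.084 without HFS2, and that of Itgb1 from -0.0034 without HFM3, where it reversed, to 0.11 without HFM1. With the replicate number as a block, 3 genes passed an unadjusted p of 0.05, since that of Itgal was 0.0532, and no mouse of the HFM group of 7 (0 of 7) correlated best with its own number. Itgal also missed that threshold by limma with array weights (log2 difference 0.26) and in an unmoderated linear model. Under the block the markers higher at an unadjusted p under 0.05 were 2 for endothelium and 5 for stellate cells, in place of 0 and 2, and with array medians subtracted St3gal6, Gata2 and Cd79a no longer passed, nor under the block St3gal6, Gata2, Itgb5, Tln1 and Rac2. The cause was not tested. Sele had no value when only rows above the median mean were kept. The adjusted p of Vcam1 ran from 0.133 to 0.981 over its alternatives.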
